A study of Mus musculus with 32 samples.

Results

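The mouse heart's sarcomere and Z-disc were followed through 36 genes: 11 of the thin filament, 7 of the thick filament, 2 of the M-band and 16 of the Z-disc. They were taken from a list of structural genes and of genes that act on these structures, and were among the 18201 genes that a probe set of the array named. Each was read from its probe set with the highest mean over the 32 arrays, and 34 of the 36 lay above the level at which genes were tested. Tnni1, the slow skeletal troponin I gene of the fetal heart, and Mybphl, the gene of a myosin-binding protein of the H-like type, lay below it and were not tested.

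The sarcomere is the contractile unit of striated muscle: myosin of the thick filament pulls on actin of the thin filament, troponin and tropomyosin make this depend on calcium, and the Z-disc anchors thin filaments of neighbouring sarcomeres through alpha-actinin. The M-band holds thick filaments together in the middle of the sarcomere. In the ventricle the Z-disc is also a site where proteins that sense load and handle damaged filaments gather, among them filamin, the PDZ-LIM proteins and the small heat shock protein alpha-B-crystallin.

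The study compared left ventricles of C57Bl6 mice whose aorta had been narrowed by transverse aortic constriction (TAC), an operation that raises the pressure the ventricle works against, with those of sham-operated mice, in both sexes and 2 genotypes. There were 8 groups of 4 individual mice: wild-type females, wild-type males, and females and males labelled as knockout of oestrogen receptor beta (Esr2), each as sham and TAC. The labels give an age of 10 weeks for all mice without saying when it was reached, and state 9 weeks of TAC for knockouts but no duration where wild-type mice had TAC, so a difference in duration between genotypes was not tested. The labels name no allele, no controls' litter and no array batch. Expression was measured on Affymetrix mouse genome arrays, 1 per mouse. Below, a stratum is a sex and genotype, levels are log2(signal + 32), and changes are TAC minus sham on that scale with the SE from limma, called where the Benjamini-Hochberg adjusted p over 11016 genes was below 0.05.

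Esr2 signals were 113 ± 53.8 (SD, n = 16) under the knockout label and 18.3 ± 15.6 (SD, n = 16) under the wild-type label, against the direction of the label. The sources used here do not place the probe set relative to the disrupted exon, so it checks no label, and knockout below means labelled knockout. The array of wild-type female TAC replicate 1 stood apart: its highest signal was 95436.7, against 42480.3 to 64128.6 on the other 31 arrays. The mean level of 10 ventricular myocyte genes, 4 of them members, ran from 14.87 to 15.96 over the 32 mice. After TAC 0 of the 10 were called higher and 4 lower in the mean (median -0.19). Their mean level did not overlap in wild-type males (15.36 to 15.53 in sham, 14.92 to 15.15 in TAC mice) or knockout females (15.14 to 15.44 and 14.90 to 15.11). Apart from Ryr2 (median signal 13260), the median signals of these genes ran from 34990 (Tnni3) to 50480 (Tnnt2). Signals this high lie near the top of the array, whose height moved with surgery (below), so no direction is read from these values. Of 11 skeletal muscle genes 1 lay above the level of testing, Ckm, at signals of 19640 to 38560. The others, among them the fast skeletal myosin genes Myh1, Myh2 and Myh4, stayed at signals of at most 167.2, reached by Mylpf. Atrial myocyte genes varied within groups, from a mean level of 7.97 to 11.3 in wild-type female sham mice. Over all mice signals ran from 5.4 to 16870 for Myl7 (median 248.7) and from 3.0 to 6370 for Sln (median 101.1). Among the other atrial genes listed, Myl4 ran from 108.7 to 12380, Nppa from 4652 to 83420, Dkk3 from 44.2 to 945.6 and Bmp10 from 12.5 to 183.9. Stard10 (413.3 to 1719) and Nr2f2 (298.7 to 593.7) varied less. After TAC 2 of the 7 atrial genes tested were called higher and 1 lower in the mean. Whether some samples held atrial tissue was not tested. In bulk tissue, fewer cells of a type and less RNA per cell cannot be told apart. After TAC, averaged over the strata, 7 of 12 fibroblast genes and 10 of 11 macrophage genes were called higher and none lower, 6 of 12 smooth muscle and pericyte genes higher and 6 lower, and 4 of 10 endothelial genes higher and 1 lower. Des, 1 of the smooth muscle and pericyte genes called higher, is also on the list of further sarcomere genes (below), with a median signal of 15920. That rise is thus not particular to smooth muscle and pericytes. The mean fibroblast level was 11.21 to 11.91 in sham and 11.82 to 13.06 in TAC mice. Members such as Tpm2, Tpm4, Myl9, Actn1, Actn4, Flnc and Vcl are also expressed outside myocytes, and the part of these cells in the changes below was not tested.

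Averaged over the 4 strata, 17 of the 34 tested members (50.0%) were called after TAC, 12 higher and 5 lower, where 41.2% of all genes were called, 23.5% higher and 17.8% lower. By structure, 8 of 16 Z-disc genes were higher and 1 lower, 4 of 10 thin filament genes higher and 2 lower, 0 of 6 thick filament genes higher and 2 lower, and neither M-band gene was called. The median change was 0.17 for the Z-disc, -0.12 for the thin filament, -0.19 for the thick filament and -0.04 over the 34 members, beside 0.02 over all genes. The share called in the whole set was thus close to the background, and the largest rises were in the Z-disc group. That group as listed includes Actn1 and Actn4, alpha-actinin genes of non-muscle cells, both called higher. The sarcomeric Actn2 was not called. The 4 members with the largest rises were Synpo2l, Myot, Flnc and Actn1, and these were also the 4 that were called higher in each stratum taken alone, as were 133 of the 11016 genes. In these 4 every TAC mouse lay above every sham mouse of its stratum in all 4 strata, which held for 1.43% of all genes. No member lay wholly below in all 4 strata (0.708% of all genes).

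**Figure D1:**
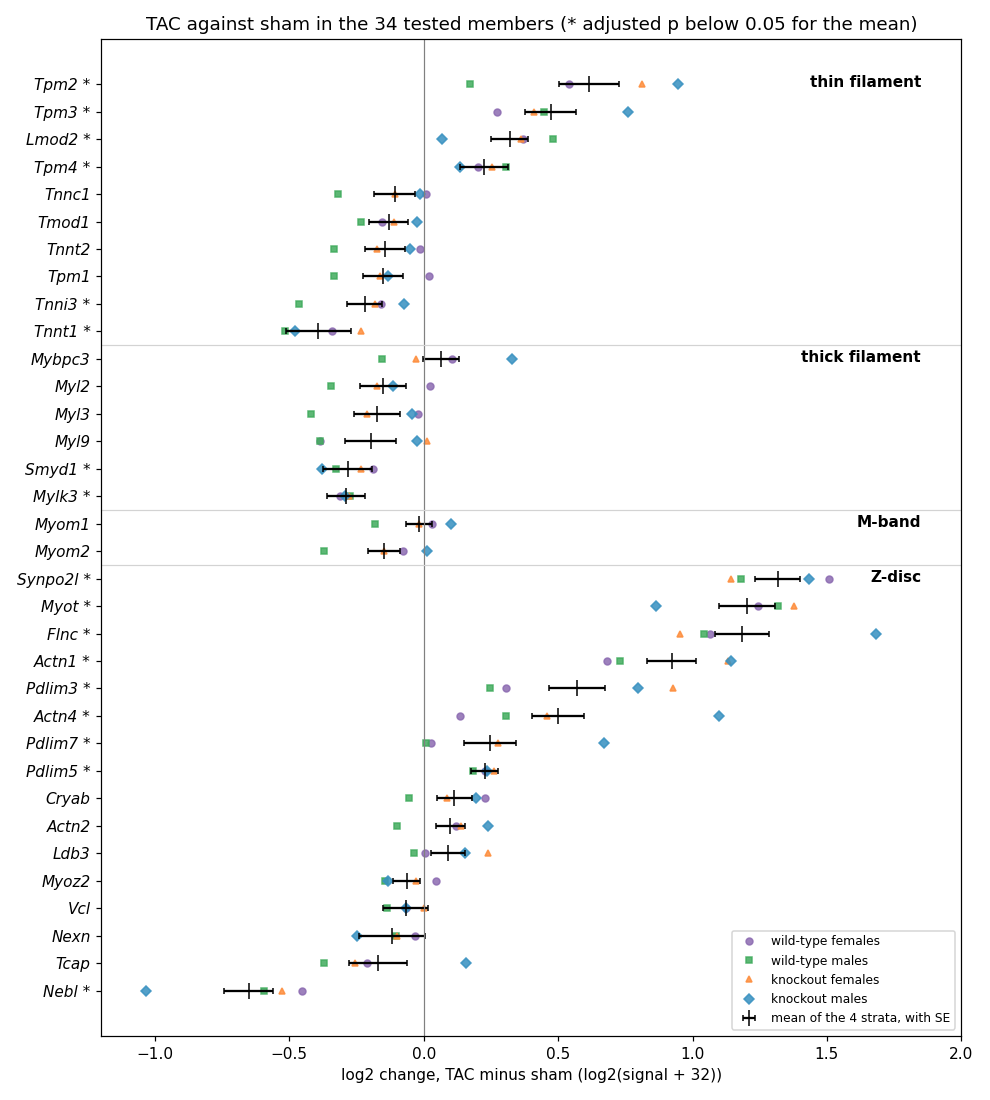
Change after TAC of the 34 tested members, grouped by structure (log2, TAC minus sham, x axis). Coloured symbols are the 4 strata, black bars the mean of the strata with its SE, and an asterisk marks an adjusted p below 0.05 for that mean. Synpo2l, Myot, Flnc and Actn1 lie right of 0 in all strata, from 0.68 to 1.68, and Nebl lies left of 0 in all, from -1.03 to -0.45.

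Synpo2l, which encodes a Z-disc protein of the synaptopodin family that binds alpha-actinin, had the largest rise of the set. In wild-type females Synpo2l stood at 12.12, 12.29, 12.39 and 11.93 in the 4 sham mice and 14.04, 13.49, 13.87 and 13.38 in the 4 TAC mice. In wild-type males Synpo2l had levels of 12.37, 12.26, 12.30 and 12.33 in the 4 sham mice and 13.10, 13.81, 13.53 and 13.53 in the 4 TAC mice. All TAC mice of these strata were above all sham mice. In knockout females Synpo2l stood at 12.41, 12.43, 12.45 and 12.43 in the 4 sham mice and 13.46, 13.62, 13.67 and 13.55 in the 4 TAC mice. In knockout males Synpo2l had levels of 12.55, 12.43, 12.51 and 12.44 in the 4 sham mice and 13.83, 13.33, 14.45 and 14.06 in the 4 TAC mice. The sham mice of all groups lay within 11.93 to 12.55 and the lowest TAC mouse of any group at 13.10, so no TAC mouse overlapped a sham mouse of any stratum. Over the strata Synpo2l changed by 1.32 ± 0.08 (2.49-fold, limma adjusted p = 2.843e-13), with 1.51 in females and 1.18 in males of the wild type and 1.14 in females and 1.43 in males of the knockout (SE 0.16 each). The other Synpo2l probe sets above the level of testing changed by 1.29 ± 0.27 and 1.62 ± 0.14.

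Myot encodes myotilin, a Z-disc protein that binds alpha-actinin, filamin C and actin. In wild-type females Myot stood at 11.83, 11.47, 11.73 and 11.83 in the 4 sham mice and 12.77, 13.20, 12.86 and 13.01 in the 4 TAC mice. In wild-type males Myot had levels of 12.22, 11.72, 12.06 and 11.73 in the 4 sham mice and 12.96, 13.34, 13.47 and 13.23 in the 4 TAC mice. In both wild-type strata the lowest TAC mouse was above the highest sham mouse. In knockout females Myot stood at 11.08, 11.51, 11.33 and 11.83 in the 4 sham mice and 12.65, 12.40, 12.58 and 13.63 in the 4 TAC mice. In knockout males Myot had levels of 12.03, 11.97, 12.33 and 11.32 in the 4 sham mice and 13.04, 12.65, 12.72 and 12.69 in the 4 TAC mice. Knockout female TAC replicate 4 was the highest of all mice, and knockout males had the closest groups, with 12.33 as the highest sham and 12.65 as the lowest TAC level. Myot changed by 1.20 ± 0.10 (2.30-fold, limma adjusted p = 4.334e-10), with 1.24 in females and 1.32 in males of the wild type and 1.38 in females and 0.86 in males of the knockout (SE 0.21 each). Myot was the member of these 4 whose change was smallest in knockout males, but that difference did not pass a test (below).

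Flnc and Actn1 are given mouse by mouse because their groups did not overlap, a choice made after their values were seen. Flnc encodes filamin C, the muscle filamin, which cross-links actin and links the Z-disc to the membrane. In wild-type females Flnc stood at 10.79, 10.55, 10.65 and 10.55 in the 4 sham mice and 11.68, 11.37, 12.10 and 11.64 in the 4 TAC mice. In wild-type males Flnc had levels of 10.83, 10.70, 10.73 and 10.80 in the 4 sham mice and 11.56, 12.12, 11.88 and 11.67 in the 4 TAC mice. All TAC mice again lay above all sham mice. In knockout females Flnc stood at 10.70, 10.90, 10.60 and 10.66 in the 4 sham mice and 11.68, 11.57, 11.87 and 11.54 in the 4 TAC mice. In knockout males Flnc had levels of 10.26, 9.30, 10.79 and 10.74 in the 4 sham mice and 11.74, 11.84, 12.12 and 12.13 in the 4 TAC mice. Knockout male sham replicate 2, at 9.30, was the lowest of all mice, and the largest stratum change, 1.68 ± 0.20 in knockout males, includes it. Flnc changed by 1.18 ± 0.10 (2.27-fold, limma adjusted p = 2.819e-10), and the other Flnc probe set changed by 1.11 ± 0.09. The stratum changes were 1.06 in females and 1.04 in males of the wild type, and 0.95 in knockout females (SE 0.20 each).

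Actn1 encodes alpha-actinin-1, an actin cross-linker of non-muscle cells and of focal adhesions. In wild-type females Actn1 stood at 9.82, 9.78, 9.63 and 9.83 in the 4 sham mice and 10.77, 10.12, 10.51 and 10.39 in the 4 TAC mice. In wild-type males Actn1 had levels of 9.88, 9.87, 9.96 and 9.80 in the 4 sham mice and 10.08, 10.91, 10.70 and 10.76 in the 4 TAC mice. The groups did not overlap, and sham mice spread less than TAC mice. In knockout females Actn1 stood at 9.34, 9.49, 9.34 and 9.50 in the 4 sham mice and 10.90, 10.51, 10.46 and 10.34 in the 4 TAC mice. In knockout males Actn1 had levels of 9.45, 9.52, 9.55 and 9.47 in the 4 sham mice and 10.52, 9.93, 11.01 and 11.10 in the 4 TAC mice. In knockout mice the sham levels, 9.34 to 9.55, were below all wild-type sham levels, 9.63 to 9.96, while TAC levels of the genotypes overlapped. The genotype difference of Actn1 in sham mice was not called (below). The share of all genes whose sham mice separate by genotype is not given here, so no genotype effect is read from these levels. Actn1 changed by 0.92 ± 0.09 (1.90-fold, limma adjusted p = 5.105e-09). By stratum it was 0.68 in females and 0.73 in males of the wild type, and 1.13 in females and 1.14 in males of the knockout (SE 0.18 each). The wild-type calls were the less firm: in wild-type females Actn1 lost its call when any 1 of 6 arrays was left out (adjusted p 0.06147 to 0.1615), and in wild-type males without TAC replicate 2, 3 or 4 (0.05201 to 0.09057). Without wild-type female TAC replicate 1, the array that stood apart, the change in wild-type females was 0.57 (adjusted p = 0.1615). With the mean of the gene's probe sets it was 0.60 (adjusted p = 0.1752).

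**Figure D2:**
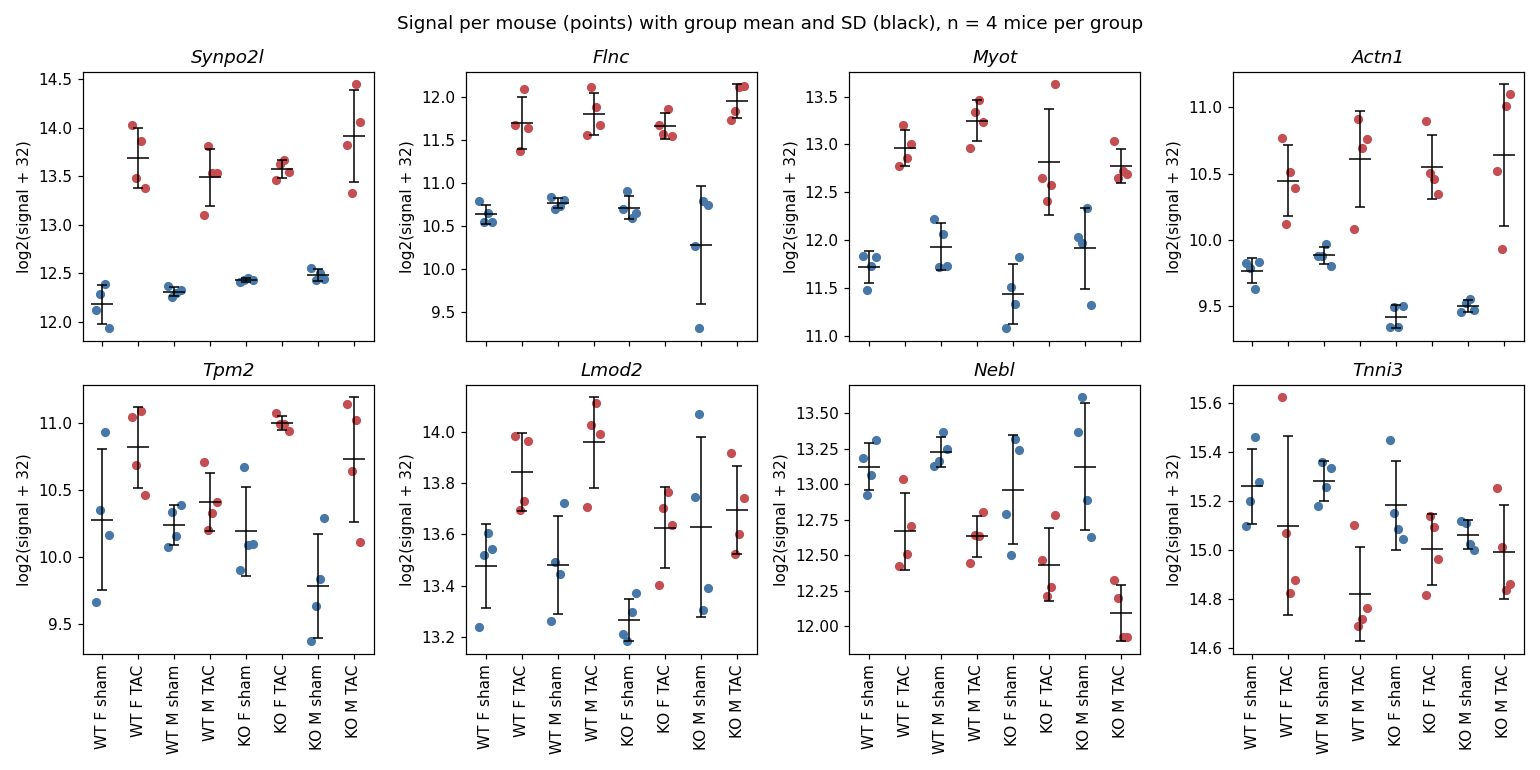
Level of 8 members in each of the 32 mice, as log2(signal + 32), by group (blue sham, red TAC; F and M are females and males, WT and KO wild type and labelled knockout), with the group mean and SD of 4 mice in black. The upper row holds the 4 genes listed under the Z-disc, the non-muscle Actn1 among them, whose TAC mice all lie above the sham mice of their stratum. The lower row shows overlapping groups for Tpm2, Lmod2, Nebl and Tnni3 in at least 1 stratum.

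Nebl was the only Z-disc gene called lower. It encodes nebulette, the cardiac relative of nebulin at the Z-disc, and the locus also gives a shorter LIM-nebulette product of non-muscle cells. In wild-type females Nebl stood at 13.18, 12.92, 13.07 and 13.31 in the 4 sham mice and 12.43, 13.04, 12.51 and 12.70 in the 4 TAC mice. In wild-type males Nebl had levels of 13.13, 13.16, 13.37 and 13.25 in the 4 sham mice and 12.45, 12.64, 12.64 and 12.80 in the 4 TAC mice. Wild-type females overlapped through TAC replicate 2, while all TAC males were below all sham males. In knockout females Nebl stood at 12.79, 12.50, 13.32 and 13.24 in the 4 sham mice and 12.46, 12.21, 12.27 and 12.79 in the 4 TAC mice. In knockout males Nebl had levels of 13.37, 13.61, 12.89 and 12.63 in the 4 sham mice and 12.32, 12.20, 11.92 and 11.93 in the 4 TAC mice. Knockout females overlapped and knockout males did not. Nebl changed by -0.65 ± 0.09 (1.57-fold lower, limma adjusted p = 1.507e-06), all 4 strata were below 0, and the call was made in knockout males alone (-1.03 ± 0.18, adjusted p = 0.0001489). In wild-type males the change of -0.59 ± 0.18 missed it (adjusted p = 0.05011). The other Nebl probe sets changed by -1.10 ± 0.22 and -0.47 ± 0.12.

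Promoter sequence was read for the members with an entry in the RefSeq table (GRCm38.p6), 31 of 36; those without were Myom2, Tcap, Myot, Nexn and Cryab. The 250 bases before the first listed start are given for 3 Z-disc genes that rose in every stratum, for Nebl, which fell, and for Myl3, a bright gene that was not called. Capitals mark the motifs searched on both strands: TATAAA (the core of the promoter element bound by the TATA-binding protein), CATTCC (the M-CAT core bound by TEAD factors), AGATAA (the core bound by factors of the GATA family), the CArG box of serum response factor and the site of MEF2 factors, the last of which may overlap TATAAA.
Synpo2l, chr14:20668355-20668604, minus strand: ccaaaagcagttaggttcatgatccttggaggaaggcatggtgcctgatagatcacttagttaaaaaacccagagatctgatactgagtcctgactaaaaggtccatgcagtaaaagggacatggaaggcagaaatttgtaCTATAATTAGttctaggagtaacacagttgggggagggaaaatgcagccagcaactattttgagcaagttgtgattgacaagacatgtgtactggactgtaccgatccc
Flnc, chr6:29432903-29433152, plus strand: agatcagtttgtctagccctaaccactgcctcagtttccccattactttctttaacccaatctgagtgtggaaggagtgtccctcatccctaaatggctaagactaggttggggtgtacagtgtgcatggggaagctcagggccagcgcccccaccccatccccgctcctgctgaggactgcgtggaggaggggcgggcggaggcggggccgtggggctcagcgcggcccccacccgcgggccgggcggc
Actn1, chr12:80260364-80260613, minus strand: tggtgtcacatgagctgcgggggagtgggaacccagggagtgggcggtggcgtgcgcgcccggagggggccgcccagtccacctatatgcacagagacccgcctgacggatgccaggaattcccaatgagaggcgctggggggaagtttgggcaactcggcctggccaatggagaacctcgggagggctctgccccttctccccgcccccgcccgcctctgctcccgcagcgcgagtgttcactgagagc
Nebl, chr2:17670166-17670415, minus strand: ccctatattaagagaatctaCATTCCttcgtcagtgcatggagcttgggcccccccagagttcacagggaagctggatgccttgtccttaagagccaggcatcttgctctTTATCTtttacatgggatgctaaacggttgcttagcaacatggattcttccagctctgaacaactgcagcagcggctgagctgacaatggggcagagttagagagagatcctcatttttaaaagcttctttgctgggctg
Myl3, chr9:110763428-110763677, plus strand: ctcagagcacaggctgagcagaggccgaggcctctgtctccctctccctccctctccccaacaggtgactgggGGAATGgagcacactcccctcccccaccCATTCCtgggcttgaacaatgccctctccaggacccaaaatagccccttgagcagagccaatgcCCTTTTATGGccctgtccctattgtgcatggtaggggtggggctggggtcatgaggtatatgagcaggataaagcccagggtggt

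Synpo2l held a MEF2 site at -109 to -100 from the start, Nebl CATTCC at -230 to -225 and AGATAA, read on the other strand, at -140 to -135, and Myl3 CATTCC at -177 to -172 and -149 to -144 and a CArG box at -85 to -76. Flnc and Actn1 held none of the 5 in these windows. Synpo2l, Flnc and Nebl have 2, 2 and 4 windows in the table, so other starts of these genes were not searched. Over the 31 members a CArG box stood in 5 (Ldb3, Myl3, Myl9, Myom1 and Vcl, none of them called), where 1.4% of 27025 promoters of the same length hold it. MEF2 sites stood in Synpo2l, Mybpc3 and Myoz2 (3.01% of all promoters), CATTCC in 9 members (12.6%), AGATAA in 7 (10.3%), and TATAAA in Smyd1 and Tnnt1, both called lower (13.0%). None of the 11 members called higher that had a window held a CArG box, which is near the share of 1.4% over all promoters. A match is a run of letters and no sign of a bound factor.

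The Z-disc's PDZ-LIM genes rose less. Pdlim3, the gene of the actinin-associated LIM protein, changed by 0.57 ± 0.10 (limma adjusted p = 6.647e-05) and was called in knockout females (0.93 ± 0.21) and knockout males (0.80 ± 0.21), where TAC and sham mice did not overlap. In wild-type mice the Pdlim3 changes were 0.31 and 0.25 and the groups overlapped. Pdlim5, the enigma homologue, changed by 0.23 ± 0.05 (adjusted p = 0.0005908), with 0.18 to 0.26 in the 4 strata, none of them called. The Pdlim5 call was lost with the mean of the gene's probe sets (0.22, adjusted p = 0.1544), and its 6 other probe sets ran from -0.02 to 0.48. With quantile normalization it was called in wild-type males (0.44, adjusted p = 0.01231) and knockout males (0.28, adjusted p = 0.03974) too. Pdlim7, the gene of enigma, changed by 0.25 ± 0.10 (adjusted p = 0.04082), with 0.67 ± 0.19 in knockout males, the 1 stratum called, 0.28 in knockout females, and 0.03 in females and 0.01 in males of the wild type. Pdlim7 lost its call of the mean when any 1 of 18 arrays was left out (adjusted p 0.05268 to 0.07783), and its call in knockout males without sham replicate 2 (0.48, adjusted p = 0.07402). Its 2 other probe sets gave 1.02 ± 0.12 and 0.01 ± 0.08, so the size of its change depended on the probe set. The first of these changed by 0.59 in females and 0.65 in males of the wild type, neither called, and by 1.22 in females and 1.61 in males of the knockout, both called (adjusted p = 0.003445 and 4.8e-05 over all probe sets).

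Among the alpha-actinin genes, the sarcomeric Actn2 was not called (0.10 ± 0.06, 95% confidence interval -0.01 to 0.21), while the non-muscle Actn1 and Actn4 were. This depended on the scaling: with quantile normalization Actn2 was called higher in the mean (0.19, limma adjusted p = 5.1e-05) and in knockout males (0.26, adjusted p = 0.00471). Actn4 encodes alpha-actinin-4 and changed by 0.50 ± 0.10 (limma adjusted p = 0.0001322). It was called in knockout males alone, at 1.10 ± 0.19, with 0.13 in females and 0.31 in males of the wild type and 0.46 in knockout females. The other Z-disc genes were not called in the mean or in any stratum on the deposited scale: Cryab (alpha-B-crystallin, a chaperone of desmin and titin) at 0.11 ± 0.07, Ldb3 (cypher, a PDZ-LIM protein that binds alpha-actinin) at 0.09 ± 0.07, Myoz2 (calsarcin-1, which binds calcineurin) at -0.06 ± 0.05, Vcl (vinculin of the cell's adhesion sites) at -0.07 ± 0.09, Nexn (nexilin) at -0.12 ± 0.12 and Tcap (telethonin, which caps titin) at -0.17 ± 0.11. Their 95% confidence intervals lay within -0.39 and 0.25, and reached furthest below 0 for Tcap. With quantile normalization Cryab (0.27, adjusted p = 7.4e-08) and Ldb3 (0.17, adjusted p = 0.01658) were called higher in the mean, and Cryab also in every stratum. Another Ldb3 probe set changed by 0.28 ± 0.07 and was called, with the probe sets in 1 fit.

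In the thin filament the tropomyosin genes divided. Tpm2, the gene of beta-tropomyosin, which is also abundant in smooth muscle, had the largest rise. In wild-type females Tpm2 stood at 9.67, 10.35, 10.94 and 10.16 in the 4 sham mice and 11.04, 10.68, 11.09 and 10.46 in the 4 TAC mice. In wild-type males Tpm2 had levels of 10.08, 10.34, 10.16 and 10.39 in the 4 sham mice and 10.71, 10.20, 10.33 and 10.41 in the 4 TAC mice. Sham and TAC mice overlapped in both wild-type strata. In knockout females Tpm2 stood at 9.90, 10.68, 10.09 and 10.10 in the 4 sham mice and 11.07, 10.99, 11.00 and 10.94 in the 4 TAC mice. In knockout males Tpm2 had levels of 9.37, 9.64, 9.84 and 10.29 in the 4 sham mice and 11.15, 10.64, 11.02 and 10.11 in the 4 TAC mice. Knockout females did not overlap and spread little after TAC, and knockout males overlapped through TAC replicate 4. Tpm2 changed by 0.62 ± 0.11 (1.53-fold, limma adjusted p = 6.662e-05), called in knockout females (0.81 ± 0.23) and knockout males (0.94 ± 0.23) and not in wild-type females (0.54 ± 0.23) or males (0.17 ± 0.23). The call in knockout females ended when any 1 of 6 arrays was left out (adjusted p 0.06668 to 0.08949). The 3 other Tpm2 probe sets, all dimmer, changed by 0.71, 1.26 and 1.64. The probe sets at 1.26 and 1.64 were called in every stratum (limma adjusted p 2.115e-05 to 0.02333 over all probe sets). That at 1.26 changed by 1.72 in females and 0.97 in males of the wild type, and 1.51 and 0.85 in the knockout. That at 1.64 changed by 1.86, 1.25, 1.83 and 1.62 in this order. That at 0.71 was called in the knockout strata alone, so the strata called depended on the probe set.

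Tpm3, a gene of slow-muscle and cytoskeletal tropomyosins, was the next. In wild-type females Tpm3 stood at 11.08, 11.06, 11.09 and 10.97 in the 4 sham mice and 11.57, 10.93, 11.66 and 11.14 in the 4 TAC mice. In wild-type males Tpm3 had levels of 10.79, 11.08, 10.88 and 10.77 in the 4 sham mice and 11.36, 11.41, 11.37 and 11.19 in the 4 TAC mice. In wild-type males all TAC mice were higher, and wild-type females overlapped. In knockout females Tpm3 stood at 11.26, 11.16, 10.95 and 10.77 in the 4 sham mice and 11.70, 11.44, 11.64 and 11.00 in the 4 TAC mice. In knockout males Tpm3 had levels of 10.92, 10.81, 11.34 and 11.45 in the 4 sham mice and 11.65, 11.44, 12.56 and 11.91 in the 4 TAC mice. Both knockout strata overlapped, and knockout male TAC replicate 3 was the highest mouse. Tpm3 changed by 0.47 ± 0.10 (1.39-fold, limma adjusted p = 0.0002072), with a call in knockout males alone (0.76 ± 0.19). The 4 other Tpm3 probe sets changed by 0.29 to 0.55. Tpm4, a cytoskeletal tropomyosin, changed by 0.22 ± 0.09 (adjusted p = 0.04095) and lost its call when any 1 of 19 arrays was left out (adjusted p 0.05119 to 0.07482).

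Tpm1, which gives the main tropomyosin of the adult mouse ventricle, was not called (-0.15 ± 0.07, 95% confidence interval -0.30 to -0.001). Its other probe sets split: 2 of them were called, at -0.32 ± 0.09 and 0.40 ± 0.12. The gene is spliced into many products, and the sources used here do not say which of them each probe set reads. Lmod2, the gene of leiomodin-2, which helps actin filaments grow at the pointed end, rose by 0.32 ± 0.07 (limma adjusted p = 0.0004315). Lmod2 was called in wild-type males (0.48 ± 0.14), a call lost when any 1 of 6 arrays was left out (adjusted p 0.07258 to 0.1247). In wild-type females and knockout females, at 0.37 and 0.36, TAC mice lay above sham mice without a call, and in knockout males the change was 0.07. Tmod1, the gene of tropomodulin-1, which caps the same end, was not called (-0.13 ± 0.07).

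The troponin genes called were lower. Tnnt1 encodes slow skeletal troponin T. In wild-type females Tnnt1 stood at 9.26, 9.39, 9.12 and 9.76 in the 4 sham mice and 8.96, 9.02, 8.94 and 9.25 in the 4 TAC mice. In wild-type males Tnnt1 had levels of 9.38, 9.38, 9.21 and 9.16 in the 4 sham mice and 9.06, 8.50, 8.68 and 8.84 in the 4 TAC mice. Wild-type females overlapped, and in wild-type males all TAC mice lay below all sham mice. In knockout females Tnnt1 stood at 9.44, 9.61, 9.37 and 9.30 in the 4 sham mice and 8.86, 8.98, 9.75 and 9.19 in the 4 TAC mice. In knockout males Tnnt1 had levels of 8.97, 9.41, 8.95 and 9.68 in the 4 sham mice and 9.45, 9.34, 7.81 and 8.48 in the 4 TAC mice. Both knockout strata overlapped, and TAC mice of knockout males spread from 7.81 to 9.45. Tnnt1 changed by -0.39 ± 0.12 (1.31-fold lower, limma adjusted p = 0.01015), with no call in any stratum taken alone.

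Tnni3 encodes cardiac troponin I and lies beside Tnnt1 on chromosome 7, with no protein-coding gene of RefSeq between the pair. In wild-type females Tnni3 stood at 15.10, 15.20, 15.46 and 15.28 in the 4 sham mice and 15.62, 15.07, 14.82 and 14.88 in the 4 TAC mice. In wild-type males Tnni3 had levels of 15.18, 15.36, 15.26 and 15.33 in the 4 sham mice and 15.10, 14.69, 14.72 and 14.76 in the 4 TAC mice. Wild-type female TAC replicate 1 was the highest of the 32 mice, and wild-type males did not overlap. In knockout females Tnni3 stood at 15.45, 15.15, 15.08 and 15.04 in the 4 sham mice and 14.81, 15.14, 15.09 and 14.96 in the 4 TAC mice. In knockout males Tnni3 had levels of 15.12, 15.11, 15.02 and 15.00 in the 4 sham mice and 15.25, 15.01, 14.84 and 14.86 in the 4 TAC mice. Both knockout strata overlapped. Tnni3 changed by -0.22 ± 0.07 (1.16-fold lower, limma adjusted p = 0.008907), and -0.08 with quantile normalization. In wild-type males the change of -0.46 ± 0.13 was called (adjusted p = 0.0337), a call lost with quantile normalization (-0.13, adjusted p = 0.1494) and when any 1 of 6 arrays was left out (adjusted p 0.06611 to 0.133). Tnnt2 (cardiac troponin T) at -0.14 ± 0.07 and Tnnc1 (cardiac troponin C) at -0.11 ± 0.08 were not called. Tnni1 stayed near the bottom of the array, with group mean signals of 6.5 to 21, and its groups overlapped in every stratum.

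In the thick filament no gene was called higher on the deposited scale, and Mybpc3 was with quantile normalization (below). Mylk3 encodes the cardiac kinase that phosphorylates the ventricular regulatory light chain. In wild-type females Mylk3 stood at 13.38, 13.53, 13.77 and 13.35 in the 4 sham mice and 13.26, 13.34, 13.06 and 13.13 in the 4 TAC mice. In wild-type males Mylk3 had levels of 13.30, 13.42, 13.28 and 13.43 in the 4 sham mice and 13.19, 12.88, 13.08 and 13.17 in the 4 TAC mice. In both wild-type strata all TAC mice lay below all sham mice. In knockout females Mylk3 stood at 13.42, 12.78, 13.35 and 13.27 in the 4 sham mice and 13.19, 12.55, 12.80 and 13.18 in the 4 TAC mice. In knockout males Mylk3 had levels of 13.34, 13.09, 13.40 and 13.20 in the 4 sham mice and 12.78, 13.21, 13.01 and 12.86 in the 4 TAC mice. Both knockout strata overlapped. Mylk3 changed by -0.29 ± 0.07 (1.22-fold lower, limma adjusted p = 0.001492), and the stratum changes lay close together with no call in any.

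Smyd1 encodes a lysine methyltransferase of striated muscle that acts in thick filament assembly. In wild-type females Smyd1 stood at 13.29, 13.36, 12.98 and 13.43 in the 4 sham mice and 12.75, 13.18, 13.28 and 13.09 in the 4 TAC mice. In wild-type males Smyd1 had levels of 13.33, 13.24, 13.26 and 13.19 in the 4 sham mice and 12.67, 12.94, 12.97 and 13.13 in the 4 TAC mice. Wild-type males did not overlap and wild-type females did. In knockout females Smyd1 stood at 12.54, 12.49, 12.96 and 13.12 in the 4 sham mice and 12.89, 12.00, 12.33 and 12.96 in the 4 TAC mice. In knockout males Smyd1 had levels of 12.95, 12.73, 13.11 and 12.58 in the 4 sham mice and 12.41, 12.93, 12.25 and 12.26 in the 4 TAC mice. Knockout mice of both surgeries reached lower levels than wild-type mice, and their groups overlapped. Smyd1 changed by -0.28 ± 0.09 (1.22-fold lower, limma adjusted p = 0.0141). With the mean of the gene's probe sets it was -0.17 and not called (adjusted p = 0.1302), and the 4 other tested Smyd1 probe sets ran from -0.45 to 0.01.

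The myosin light chains were not called in the mean or in any stratum. The ventricular chains gave -0.15 ± 0.09 for Myl2, the regulatory chain, and -0.17 ± 0.09 for Myl3, the essential chain. Myl9, the regulatory chain of smooth muscle and non-muscle myosin, gave -0.20 ± 0.10, with -0.39 in wild-type mice of each sex, and 0.01 in females and -0.03 in males of the knockout; in wild-type females all TAC mice lay below all sham mice, and Myl9 was called lower there when only the arrays compared were fitted (adjusted p = 0.04142). Mybpc3, the gene of cardiac myosin-binding protein C, gave 0.06 ± 0.07, with its largest stratum change in knockout males (0.33 ± 0.13, limma adjusted p = 0.05825). With quantile normalization Mybpc3 was called higher in the mean (0.19, adjusted p = 0.001414) and in knockout males (0.37, adjusted p = 0.003374). The M-band genes, whose products cross-link thick filaments, gave -0.02 ± 0.05 for Myom1 and -0.15 ± 0.06 for Myom2 (adjusted p = 0.05029).

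Several of these genes gave signals near the top of the array, where a scanner's range can flatten differences. Tnnt2 was between 89.7% and 100% of the highest signal on every array, and Myl3, Myl2, Cryab, Tpm1, Tnni3 and Tnnc1 were at or above 50% on all 32 arrays. Mybpc3, Myom2, Actn2, Tcap, Myoz2, Pdlim5 and Synpo2l reached 50% on some arrays, Synpo2l on 1. The mean changes of the 7 highest genes lay between -0.22 and 0.11 with a median of -0.15, and 1 was called. Of the 20 tested members below 50% on all arrays, 10 were called higher and 4 lower, with changes from -0.65 to 1.20. The sources used here do not say whether the scanner's range was reached, and its part in the small changes of the highest genes was not tested. For Tnnt2 a dimmer probe set, at 3.82% to 14.5% of the highest signal, changed by -0.82 ± 0.08 (limma adjusted p = 1.064e-08 over all probe sets), against -0.14 ± 0.07 and -0.17 ± 0.08 for its 2 bright ones. The sources used here do not say which transcripts each of them reads.

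**Figure D3:**
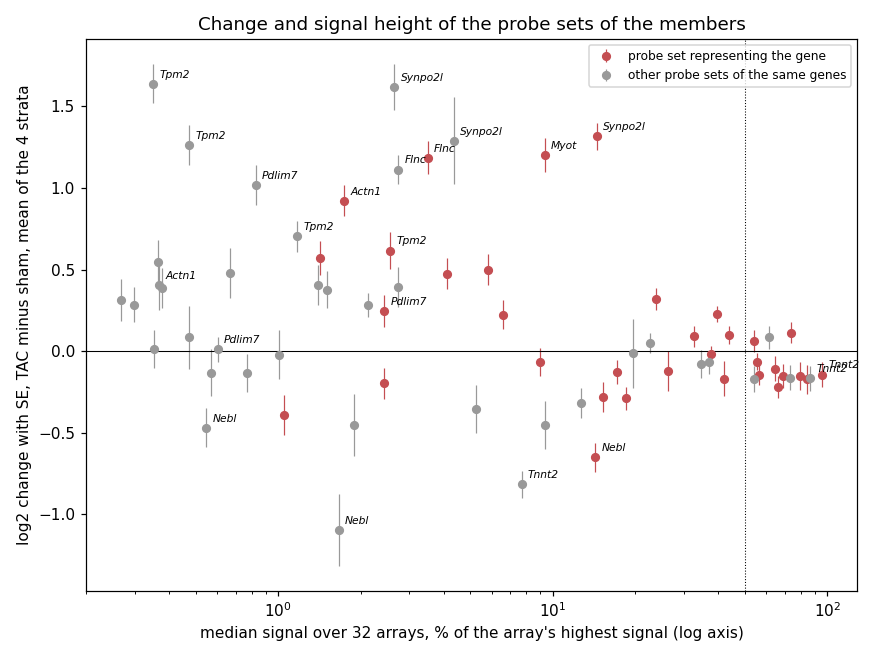
Change after TAC (mean of the strata with SE, y axis) of every tested probe set of the members against its median signal as a percent of the array's highest (log axis). Red points represent the gene, grey points are its other probe sets, and the dotted line is at 50%. Right of the line all changes lie within -0.22 and 0.11, while points left of it reach from -1.10 to 1.64.

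The scale of the highest genes also moved with surgery. Leaving out the array that stood apart, the highest signal was 42480.3 to 58995.9 on the 15 other TAC arrays (median 48722.3) and 48313.3 to 64128.6 on the 16 sham arrays (median 56878.8). On the array that stood apart, wild-type female TAC replicate 1, Tnnt2 was at 16.52, against 15.69, 15.34 and 15.43 in the other 3 mice of its group. Without that array 21 members were called in the mean, a count given without the share of all genes called in that setting. Tnnt2 (-0.21), Tpm1 (-0.22), Tnnc1 (-0.17), Myl2 (-0.23), Myl3 (-0.25) and Myom2 (-0.18) were then lower, and Tpm4 and Pdlim7 lost their calls. With quantile normalization, which gives all arrays the same top, 4 further members were called higher in the mean, again without the share of all genes called in that setting. They were Cryab, Actn2, Mybpc3 and Ldb3, while Pdlim7 lost its call. The changes of Tnnt2, Tpm1, Tnnc1, Myl2 and Myl3 were then 0.01, -0.02, 0.03, 0.004 and -0.004. Quantile normalization thus brought Tnnt2, Tnnc1 and Myl2 close to 0, and giving all arrays the same top leaves such genes little room to change. With array medians set equal they stayed below 0 (-0.116, -0.08 and -0.125), none of them called. The size of these changes depended on the scaling, and no direction is read from them. Synpo2l, Myot, Flnc and Actn1 kept calls in all 4 strata with quantile normalization; of these, Myot, Flnc and Actn1 lost calls in single strata with the beta-actin covariate described below.

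Among the other probe sets, 43 belonged to 16 of the members and 38 could be tested with the 22519 probe sets at or above the level of testing, of which 37.6% were called. Of the 38, 21 were called: 17 for a member called the same way, 4 for a member that was not called, and 0 against a member's call. Those 4 were the dimmer Tnnt2 probe set, the 2 of Tpm1 and the 1 of Ldb3. Probe sets of the same gene share transcripts and mice and are not replicates.

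By stratum, 4 members were called higher in wild-type females (2.05% of all genes) and 0 lower (1.23%), that is 11.8% of the 34 where 3.28% of all genes were called. They were Synpo2l, Myot, Flnc and Actn1. In wild-type males 5 were higher (3.1% of all genes), these 4 and Lmod2, and 1 lower (2.45%), Tnni3, that is 17.6% against 5.56%. In knockout females 6 were higher (3.75%), the 4 with Tpm2 and Pdlim3, and 0 lower (1.83%), that is 17.6% against 5.58%. In knockout males 9 were higher (19.6%), the 4 with Tpm2, Tpm3, Actn4, Pdlim3 and Pdlim7, and 1 lower (12.9%), Nebl, that is 29.4% against 32.6%. The members' share was thus above the background in the other 3 strata and near it in knockout males. Calls outside the Z-disc group in single strata were Lmod2, Tpm2 and Tpm3 higher and Tnni3 lower, all of the thin filament.

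Mice that did not overlap gave a like picture, with the falls gathered in wild-type males. All TAC mice lay above all sham mice for 5 members in wild-type females (7.82% of all genes), the 4 genes above and Lmod2, and below for 2 (6.47%), Myl9 and Mylk3. In wild-type males 6 lay above (9.85%), the 4 with Tpm3 and Actn4, and 11 below (8.11%): Tnnt2, Tnnt1, Tnni3, Tnnc1, Tpm1, Myl2, Myl3, Mylk3, Smyd1, Myom1 and Nebl. In knockout females 8 lay above (5.78%), the 4 with Tpm2, Lmod2, Pdlim3 and Pdlim5, and 0 below (4.19%). In knockout males 7 lay above (11.5%), the 4 with Actn4, Pdlim3 and Cryab, and 1 below (6%), Nebl. For wild-type males the members below included 6 of the 7 genes at the top of the array, all but Cryab. The median change of those 7 in wild-type males was -0.34, and -0.01 with quantile normalization. The count of calls in wild-type males was 16 (7 higher and 9 lower) when only the 8 arrays compared were fitted, and 12 without wild-type female TAC replicate 1, an array of another stratum that acts through the shared spread. Falls in Tnnt2, Tpm1, Myl2, Myl3, Myom2 and Nebl were added in both settings. Both settings change the spread estimate for all genes, and the share of all genes called in them is not given here. No result about the members is read from these counts.

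Whether the response differed between the sexes or genotypes was tested directly. In limma no member and no other gene was called for the sex difference in wild-type mice, the sex difference in knockout mice, the genotype difference in females or the genotype difference in males (0% of 11016 genes in each). At an unadjusted p below 0.05 there were 0, 2, 1 and 10 of the 34 members, beside 198, 803, 314 and 1524 genes (1.8%, 7.29%, 2.85% and 13.8%). In males, where the most members were at that level, the largest differences of response, knockout minus wild type, were in Actn4 (0.79 ± 0.27, adjusted p = 0.2824), Tpm2 (0.77 ± 0.32, adjusted p = 0.3211), Pdlim7 (0.66 ± 0.27, adjusted p = 0.3211) and Flnc (0.64 ± 0.29, adjusted p = 0.3345). The median over the members was 0.27, beside 0.04 over all genes. It includes members near the top of the array, whose scale moved with surgery (above). Members at 50% or more on all arrays had a median change of -0.335 in wild-type males and -0.053 in knockout males. With quantile normalization these medians were -0.007 and 0.033, so no genotype difference of the set is read from the median of 0.27. In 7 members the difference lay below 0, the largest being Myot (-0.46 ± 0.30, adjusted p = 0.4703), Nebl (-0.44 ± 0.26, adjusted p = 0.4313) and Lmod2 (-0.41 ± 0.19, adjusted p = 0.3487). Without knockout male sham replicate 4, Actn4 (1.00, adjusted p = 0.03132) and Pdlim7 (0.92, adjusted p = 0.03154) were called.

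The values behind the male genotype difference spread widely in sham mice. Actn4 was at 10.94, 10.53, 11.40 and 11.81 in knockout male sham mice and 12.30, 11.86, 12.39 and 12.51 in knockout male TAC mice. In wild-type males the levels were 11.51, 11.59, 11.59 and 11.36 in sham and 11.87, 11.82, 11.76 and 11.83 in TAC mice. Sham mice of the knockout males thus ran below and above those of the wild-type males, while all TAC mice of both genotypes lay above every sham mouse of their stratum. Pdlim7 was at 10.05, 9.59, 10.05 and 10.94 in knockout male sham mice and 10.63, 10.61, 10.87 and 11.18 after TAC, and replicate 4 was the highest of both groups. Because these sham mice enter both the knockout response and the genotype difference, the comparisons share them.

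In sham mice no member was called for the genotype difference (165 genes were, 1.5% of those tested) or for the sex difference (8 genes, 0.0726%), and 5 members and 1 member had an unadjusted p below 0.05, against 16.5% and 5.83% of genes. The smallest p of the genotype difference was for Smyd1, knockout minus wild type -0.45 ± 0.13 (limma adjusted p = 0.072). It was called without knockout female TAC replicate 2 (-0.45, adjusted p = 0.04704), knockout female sham replicate 4 (-0.51, adjusted p = 0.04529) or knockout male sham replicate 3 (-0.50, adjusted p = 0.04482). Actn1, listed under the Z-disc, gave -0.37 ± 0.13 (adjusted p = 0.1488). The smallest p of the sex difference was for Myot, at -0.35 ± 0.15 (female minus male, adjusted p = 0.8222).

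The 3-prime minus 5-prime log2 difference of the array's beta-actin control, a measure of RNA and labelling quality, was 0.45 to 1.10 in sham and 0.05 to 0.48 in TAC mice and did not overlap within any stratum. With it as a covariate, 5 of the 17 members stayed called in the mean: Synpo2l (1.30), Myot (1.10), Actn1 (0.87), Flnc (0.86) and Lmod2 (0.54). The share of all genes that kept a call is not given here, so the loss is not particular to the members. In single strata the covariate ended calls of 3 of the 4 genes with the largest rises. Flnc lost those in wild-type females (0.79, limma adjusted p = 0.09494), wild-type males (0.68, adjusted p = 0.1886) and knockout females (0.59, adjusted p = 0.3065). Actn1 lost those in wild-type females (0.64, adjusted p = 0.1696) and wild-type males (0.68, adjusted p = 0.1809), and Myot that in knockout males (0.76, adjusted p = 0.08912). Synpo2l kept all 4. The median SE of the members rose from 0.09 to 0.17, since this measure and surgery largely go together. Its part in any of the 17 changes, those that stayed called included, cannot be told apart from that of surgery.

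Of a list of 59 further sarcomere, Z-disc and cytoskeletal genes and their regulators, 49 were tested, and 19 were called higher and 11 lower in the mean, with a median of 0.06, beside 41.2% of all genes called, 23.5% higher and 17.8% lower. The largest rises were Myh7 (slow myosin heavy chain, 3.29 ± 0.12), Acta1 (skeletal alpha-actin, 2.30 ± 0.13) and Mybpc2 (fast skeletal myosin-binding protein C, 1.80 ± 0.14), each above the largest member change, 1.32 in Synpo2l. The largest falls were Hrc (histidine-rich calcium-binding protein, -0.66 ± 0.09), Mef2a (a muscle transcription factor, -0.59 ± 0.08) and Myocd (myocardin, a cofactor of serum response factor, -0.52 ± 0.10).

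Mybphl was followed apart because its level varied within groups. In wild-type female sham mice it stood at 7.32, 5.32, 9.50 and 7.09, and the atrial light chain gene Myl7 at 10.75, 6.83, 14.05 and 5.29. Replicate 3 was the highest in both genes. Over the 32 mice the levels correlated (Pearson r = 0.748, permutation p = 1e-05, the smallest that 100000 permutations can give; Spearman rho = 0.636, permutation p = 0.00016), in the 1 relation computed, which was chosen after the values were seen. Without the 2 mice farthest from the median of Myl7 the Pearson r was 0.656, and that of the deviations from the group means was 0.785. In 6 of the 8 groups the same mouse had the most of both. The Mybphl signal was low, with group means of 50.4 to 233.5, and sham and TAC mice overlapped in every stratum.

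**Figure D4:**
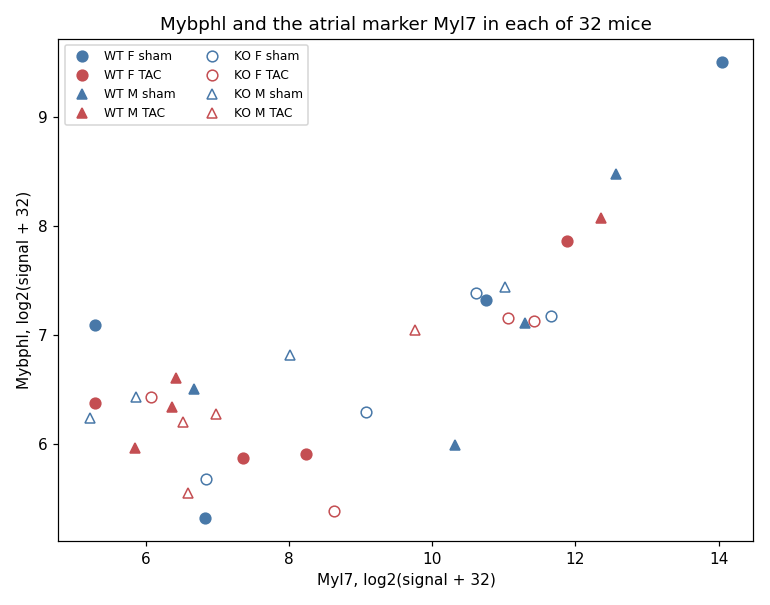
Level of Mybphl against that of the atrial marker Myl7, each as log2(signal + 32), in each of the 32 mice (blue sham, red TAC; circles females, triangles males; filled wild type, open labelled knockout). Mice with more Myl7 had more Mybphl (Pearson r = 0.748), and wild-type female sham replicate 3 is at the top right.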

How the data were processed

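Total RNA of 32 left ventricles was hybridised to 1 array each. The values the authors deposited are signal intensity on a linear scale, 1 value per probe set; per the submitters' processing notes the tool was MAS5, version 5.0. The trimmed mean (2% from each end) was 500 on all arrays, so no further scaling was applied. Of 45101 probe sets 64 were controls, 34957 had 1 symbol in the platform annotation, 920 several and 9160 none named here. Those with several or none were left out.

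Values were log2(signal + 32), a scale that understates folds of low genes, with 1 probe set per gene (highest mean) and a filter at the median over probe sets other than controls (7.11, a signal of 106.1). All contrasts came from 1 limma fit of 8 group means (limma 3.58.1 in R 4.3.3, eBayes with the intensity trend). Tests were two-sided and adjusted after Benjamini and Hochberg over 11016 genes. Its SE pools the spread of all groups. The fit was tested on simulated data. The correlation used scipy 1.17.1, figures matplotlib 3.10.9, and Python was 3.11.15. Microarrays give no read depth; 4 arrays per group limit the precision.

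The members and lists were chosen with earlier results of these data known. All members are named. Every mouse is given for up to 2 rises and 2 falls per structure among those called, and for Flnc and Actn1, added after their values were seen. Of the further sarcomere list 3 rises and 3 falls are named, and of other cells' lists the counts. Alternatives were pseudocounts of 1 and 128, quantile normalization, no filter, array medians set equal, probe sets averaged per gene, a block for the replicate number, the beta-actin covariate, only the groups compared, leaving out each array and, added after seeing the data, every probe set in 1 fit. Promoters and gene neighbours are from RefSeq (GRCm38.p6).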

Additional observations from a re-analysis of the deposited data

Results flagged for a closer look

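In 6 of the 288 groups of 4 mice examined (2.08%, where chance gives about 1 in 20), 1 mouse lay far from the other 3 by Dixon's test. Actn2, the sarcomeric alpha-actinin gene, held 3 of them: wild-type female sham replicate 3 at 14.58 (the others at 14.41 to 14.44), wild-type female TAC replicate 1 at 14.98 (14.44 to 14.47) and wild-type male TAC replicate 1 at 14.62 (14.35 to 14.39). Actn4 was low in knockout female TAC replicate 4, at 11.48 against 12.10 to 12.18. Pdlim5 was low in knockout male TAC replicate 1, at 14.38 against 14.58 to 14.62. Tnni1, below the level of testing, was high in knockout male TAC replicate 4, at 6.18 against 5.30 to 5.39.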

How the results depend on the processing

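Of the 43 calls of members in the mean and in single strata, 17 were kept under all alternatives run, 26 were lost in at least 1 setting other than leaving out an array, 8 of these also without at least 1 array, and 0 changed sign. With the beta-actin covariate the calls were 5 in the mean; in the wild type 2 for females and 3 for males, and in the knockout 3 for females and 5 for males. With only the groups compared, wild-type males had 16. Leaving out each array in turn gave 3 to 12 calls in wild-type males, 0 to 2 for the genotype difference of the response in males and 0 to 1 for the genotype difference in sham mice. All other counts stayed within 1.5 times the main count. The share of all genes called in each alternative is not given here, so a shift in these counts is not particular to the members. The replicate block left 17, 4, 6, 6 and 10 calls in the mean and in the strata in the order above. Same-numbered mice correlated at -0.609 to 0.585 in their deviations from group means, and mice of different numbers at -0.624 to 0.612. The medians were 0.0148 and -0.00669, and 0.0798 for same-numbered sham and TAC mice of a stratum. Whether mice of 1 number shared a batch was not tested. The number of arrays, 4 per group, and signals near the array's top limit what differences could be measured.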
